A study of Mus musculus with 6 samples.

Results

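The genes described here encode the machinery that moves proteins into mitochondria. They are the probe sets whose gene number maps to a symbol beginning with Timm or Tomm and a digit, or to 1 of a set of named partners (Timmdc1, Samm50, Mtx1, Mtx2, Pmpca, Pmpcb, Pam16, Grpel1, Grpel2, Chchd4, Gfer, Immp1l and Immp2l). Of 23185 named probe sets, 35 met this rule, 1 for each gene, and 34 of them are protein-coding. Timm23, Timm8a1, Pam16 and Immp2l are not analysed here. The rule uses gene symbols and no measured value, but it was set with earlier results of these data known. Of the 35, Tomm6os is a noncoding RNA that overlaps Tomm6, Tomm34 encodes a cytosolic cochaperone, and Timmdc1 encodes a complex I assembly factor related to the TIM17 family, so 32 belong to the import machinery or are close paralogs of its subunits.

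The RNA came from a mouse line of group 2 innate lymphoid cells (ILC2s) of C57BL/6J origin, grown in IL-2 and IL-33, each at 10 ng/ml. One group received a lentiviral LentiV2CRISPRGFP construct with a guide against Myc, and the control group the same construct with a non-target guide. GFP-positive cells were sorted 6 days after transduction, and total RNA was hybridised to 3 arrays per group. GFP marks cells that took up the construct and does not report editing of Myc. Whether replicate arrays came from separate cultures is not given, and p-values cover the spread among these 6 arrays alone, which may be technical.

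Nearly all mitochondrial proteins are made in the cytosol and enter through the TOM complex of the outer membrane. From there, proteins with a presequence pass the TIM23 channel and are pulled in by the HSP70 motor, carriers are escorted by small TIM chaperones to the TIM22 complex, and barrel proteins go to the SAM complex. MYC is a transcription factor that binds DNA with its partner MAX, and genes of mitochondrial biogenesis are among its known targets.

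Values are log2 RMA values, on which 1 unit is a factor of 2, and differences are given as knockout-labelled arrays minus control arrays, ± SE. Array medians lay between 3.27 and 3.34 and lower quartiles between 2.04 and 2.13. Myc itself was at 9.55, 9.79 and 9.73 on the knockout-labelled arrays, against 9.27, 9.33 and 9.39 on the control arrays. The targeted mRNA was therefore higher where the label calls for a knockout (difference 0.36 ± 0.080, limma's adjusted p = 0.127), so all directions below rest on the labels. The groups did not overlap for Myc (limma's unadjusted p = 0.0033), while 9.25% of all genes were higher without overlap. An mRNA level does not report edits in a coding sequence, so this is a weak check of the labels. Why the Myc level was higher was not tested. Of 15 ILC2 markers, Il2ra, Il13, Il5, Gata3, Id2, Icos and Ptprc stood far above the array medians, while Il17rb and Thy1 lay near or below them in both groups. At limma's unadjusted p under 0.05, 4 of the 15 were higher (Il5, Il2ra, Icos and Il13) and 4 lower (Gata3, Il7r, Ptprc and Arg1), against 6.97% and 7.91% of all genes. Among the 15 only Il5 passed over all genes tested (difference 0.49 ± 0.061; limma's adjusted p = 0.0386). The T cell marker list (8 genes) summed to 25.3 to 26.2 on the knockout-labelled arrays and 25.8 to 26.5 on the control arrays, with Cd3d, Cd3e, Cd4, Cd8b1 and Cd5 below the array medians and Cd3g, Cd8a and Cd28 above them on all arrays. The means of Cd3g were 5.04 on the knockout-labelled arrays and 5.47 on the control arrays, without overlap (limma's unadjusted p = 0.0148, adjusted p = 0.22), and those of Cd8a were 4.93 on the knockout-labelled arrays and 4.73 on the control arrays. The 4 ILC3 markers summed to 8.11 to 8.49 on the knockout-labelled arrays and 6.94 to 7.26 on the control arrays. This was mainly through Il17a, at a mean of 3.79 against 2.84 in controls, which passed over all genes tested (limma's adjusted p = 0.0353). The 7 myeloid and mast cell markers summed to 21.3 to 21.9 on the knockout-labelled arrays and 22.1 to 22.3 on the control arrays, mainly through Itgam, at 5.99 against 6.61 in controls. The sums of the 5 NK cell and ILC1 markers and of the 4 B cell markers overlapped between the groups. Ncr1, Eomes, Cd79a, Cd79b and Ms4a1 lay below the array medians, Klrb1c, Tbx21 and Pax5 lay near them, and Prf1 stood well above them, at 7.49 on the knockout-labelled arrays and 7.40 on the control arrays. The part of other cells in the results below was not tested, and in bulk RNA fewer cells of a type and less RNA per cell cannot be told apart.

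As a group the import genes lay close to the control level, with a few genes apart from it in both directions. No member passed over all genes tested (limma, Benjamini-Hochberg adjusted p under 0.05; 0 higher and 0 lower), where 0.453% of all genes were called, 0.254% as higher and 0.198% as lower. At an unadjusted p under 0.05 in limma, 5 of the 35 were higher (Timm17a, Timmdc1, Tomm5, Timm10 and Timm9) and 3 were lower (Gfer, Tomm6 and Grpel2), against 6.97% and 7.91% of all genes. The 3 values of the knockout-labelled arrays lay above all control values for 7 members and below them for 4, against 9.25% and 10.6% of all genes. Differences were positive for 21 members and negative for 14, and the median difference was 0.041, beside 0.0077 over all genes tested. At or above the median level, 20 of 33 members were positive with a median of 0.048, while 42.0% of all genes there were positive with a median of −0.030. With the test limited to that level, 7 members were higher and 4 lower without overlap, against 10.7% and 18.5% of all genes there. Among the 22 members whose difference was smaller than 0.1 in size, the 95% intervals ran from −0.28 to 0.37 at their widest.

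These counts depend in part on the scaling of the arrays. At limma's unadjusted p under 0.05, cyclic loess gave 6 higher members and 2 lower ones, against 7.41% and 6.8% of all genes. It also gave 9 members higher and 2 lower without overlap between the groups, against 10.9% and 12.2% of all genes. Median centring, which adds the same constant to every gene's difference, gave 4 higher and 5 lower, against 6.82% and 15.3% of all genes. The median difference of the members was 0.071 under cyclic loess, beside 0.0043 over all genes, and 0.016 under median centring, beside −0.017 over all genes. It was 0.0089 without knockout-labelled replicate 2, beside 0.0039 over all genes, and 0.027 without control replicate 1, beside 0.0044.

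**Figure D1:**
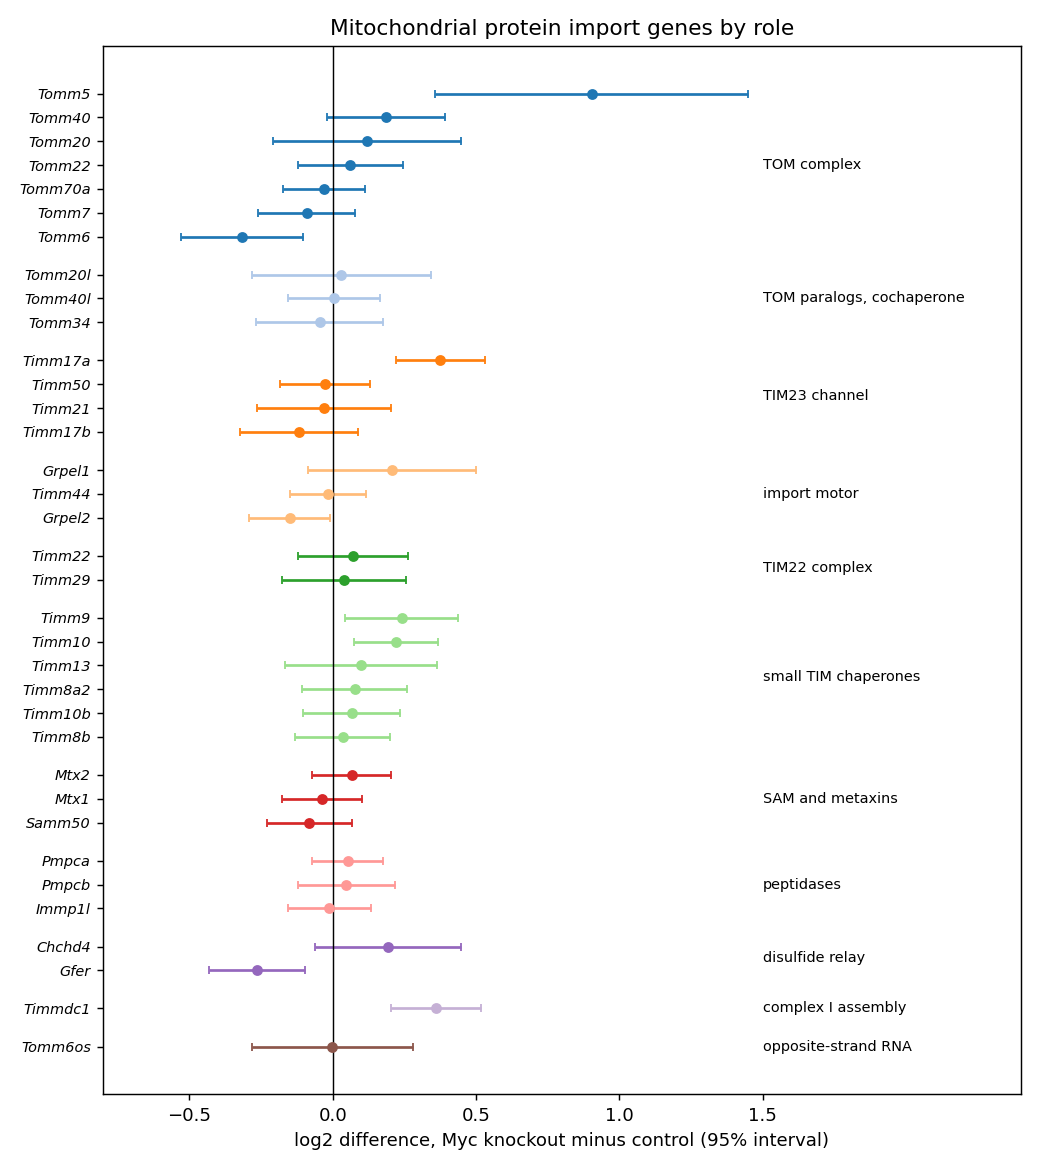
Log2 difference (horizontal axis, knockout-labelled arrays minus control arrays) of each of the 35 genes, grouped by role; points are differences and bars 95% intervals from limma. Most intervals cross 0, Tomm5 lies farthest to the right at 0.90 with the widest interval, and Tomm6 lies farthest to the left at −0.32.

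The largest departures came from members with different roles, among them Timmdc1, a complex I assembly factor and not an import subunit. The member with the smallest p was Timm17a, which encodes 1 of a pair of alternative subunits at the core of the TIM23 channel. It stood at 8.80, 8.91 and 8.91 on the knockout-labelled arrays, against 8.51, 8.56 and 8.43 on the control arrays. The groups did not overlap, and the difference was 0.38 ± 0.065, a 1.30-fold level (95% interval 1.17 to 1.44), without passing over all genes (limma's adjusted p = 0.0797). Timmdc1 was next, at 7.38, 7.45 and 7.26 against 7.01, 7.01 and 6.99 on the control arrays (1.28-fold, 95% interval 1.15 to 1.43; limma's adjusted p = 0.0889). Every value with the Myc guide exceeded every control value here too, and control replicates 1 and 2 had exactly the same value for Timmdc1. Both genes passed with an intensity trend in limma's prior variance (adjusted p = 0.0229 for Timm17a and 0.0386 for Timmdc1; 0.699% of all genes called higher). They also passed when only probe sets at or above the median level were tested (adjusted p = 0.0268 and 0.0307 in limma; 1.72% called higher). Their differences ranged from 0.34 to 0.41 and from 0.32 to 0.41 over 16 alternatives, and their adjusted p ranged up to 0.229 and 0.255.

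**Figure D2:**
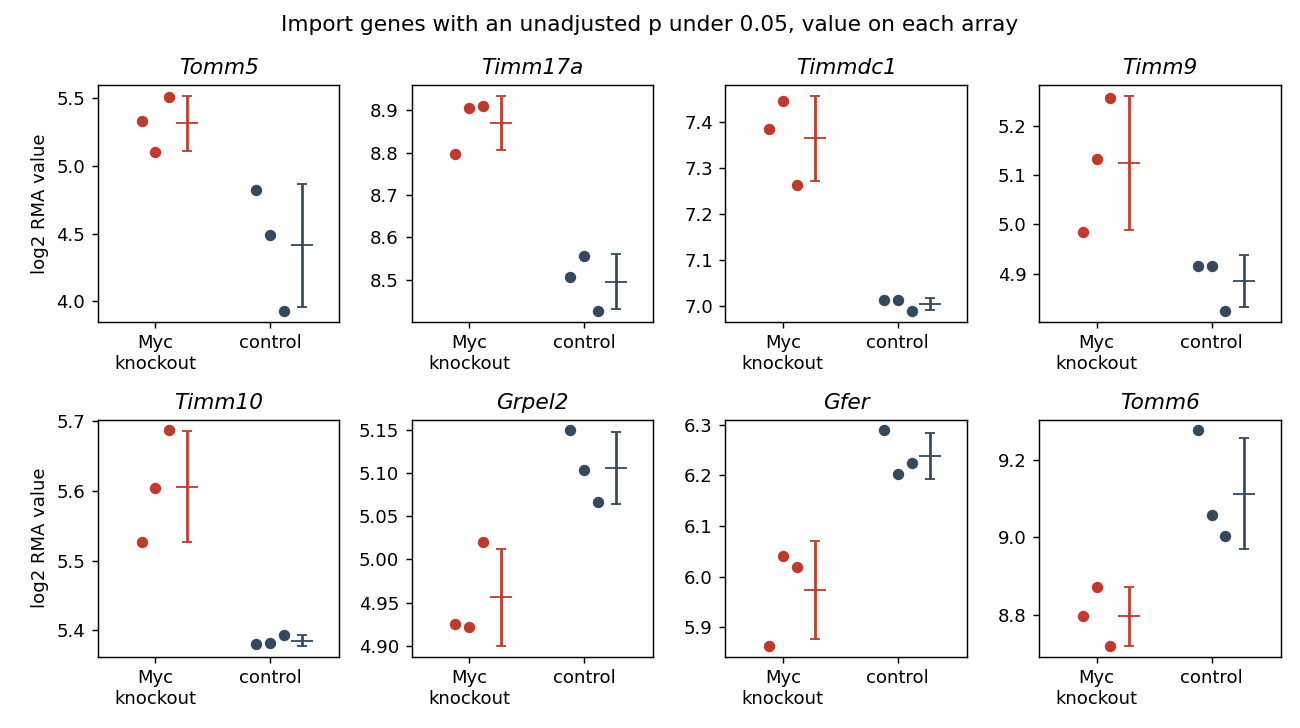
Log2 RMA value (vertical axis, own scale for each gene) on each array for the 8 genes with an unadjusted p under 0.05; points are arrays, and the bar beside them is the mean with its SD (n = 3). In each panel the 3 knockout-labelled arrays and the 3 control arrays do not overlap, and the control arrays of Tomm5 spread most, from 3.93 to 4.82.

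Sequences upstream of the genes with the smallest p are shown because MYC and MAX bind the E-box, whose letters are CACGTG. The motif reads the same on both strands and was searched as these letters only. In the RefSeq promoters of GRCm38.p6, which run from 250 bases before to 50 bases after an annotated start, 31 of the 35 members matched, with 33 promoters; Tomm7, Tomm40l, Timm21 and Grpel2 were not matched. An E-box stood in 5 of these promoters (15.2%), against 7.15% of all 32851 promoters and 7.84% of those of protein-coding genes. The 5 genes were Timm9, Timm10, Tomm20, Tomm20l and Tomm6os. None of the 4 members with the smallest p (Timm17a, Timmdc1, Tomm5 and Gfer) held the motif in this window, and their 250 bases before the start are printed first. Timm9, added after its values were seen, held 2 copies, shown in capitals, 1 of which begins 58 bases before the start and 1 of which begins 1 base before it and runs across it. Its printed stretch therefore includes 5 bases after the start. All are on the minus strand, written 5′ to 3′ along the gene: Timm17a at chr1:135313738-135313987, Timmdc1 at chr16:38522664-38522913, Tomm5 at chr4:45108114-45108363, Gfer at chr17:24696157-24696406 and Timm9 at chr12:71136671-71136925.
Timm17a: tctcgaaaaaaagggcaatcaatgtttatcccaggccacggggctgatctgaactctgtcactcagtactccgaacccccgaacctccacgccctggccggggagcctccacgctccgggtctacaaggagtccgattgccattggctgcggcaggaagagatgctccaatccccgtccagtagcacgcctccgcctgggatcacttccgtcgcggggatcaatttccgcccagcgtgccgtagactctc
Timmdc1: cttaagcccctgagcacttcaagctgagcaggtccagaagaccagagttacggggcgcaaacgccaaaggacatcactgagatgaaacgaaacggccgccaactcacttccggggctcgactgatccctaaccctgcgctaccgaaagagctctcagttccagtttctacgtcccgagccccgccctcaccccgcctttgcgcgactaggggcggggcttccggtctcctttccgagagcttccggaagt
Tomm5: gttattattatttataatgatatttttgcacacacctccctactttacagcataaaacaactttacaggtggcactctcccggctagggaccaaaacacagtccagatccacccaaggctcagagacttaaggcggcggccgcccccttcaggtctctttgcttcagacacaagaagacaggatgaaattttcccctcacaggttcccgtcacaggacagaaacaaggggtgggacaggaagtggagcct
Gfer: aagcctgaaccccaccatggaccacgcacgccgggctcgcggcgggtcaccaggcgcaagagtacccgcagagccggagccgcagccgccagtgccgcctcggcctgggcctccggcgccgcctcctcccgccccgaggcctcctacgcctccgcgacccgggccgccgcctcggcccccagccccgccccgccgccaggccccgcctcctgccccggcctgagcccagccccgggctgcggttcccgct
Timm9: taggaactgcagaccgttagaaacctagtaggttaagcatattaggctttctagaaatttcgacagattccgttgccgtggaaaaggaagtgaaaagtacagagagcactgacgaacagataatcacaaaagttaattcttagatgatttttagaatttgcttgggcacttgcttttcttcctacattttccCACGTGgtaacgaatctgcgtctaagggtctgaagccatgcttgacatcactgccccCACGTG

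In Timm10 the E-box lay 29 bases after the start, in Tomm20 126 bases before it and in Tomm20l 25 bases before it. The median difference was 0.12 for the 5 members with an E-box and 0.050 for the 26 without, as a description of these few genes. Timm9 and Timm10 were in the first set with unadjusted p under 0.05, while Tomm20, Tomm20l and Tomm6os differed by 0.12 ± 0.14, 0.030 ± 0.13 and −0.0019 ± 0.12.

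In the TOM complex, a pair of small subunits lay on opposite sides of the control level, while the receptors lay close to it. Tomm5, a small subunit associated with the pore, was at 5.33, 5.10 and 5.51 on the knockout-labelled arrays, against 4.82, 4.49 and 3.93 on the control arrays. The groups did not overlap, but control replicate 3 was far below the other controls. The difference of 0.90 ± 0.23 was the largest of any member in size and a 1.87-fold level (95% interval 1.28 to 2.73; limma's adjusted p = 0.167), and it was 0.66 without control replicate 3. Tomm6, another small subunit, was at 8.80, 8.87 and 8.72, against 9.28, 9.06 and 9.004 on the control arrays. All 3 values with the Myc guide were lower, and the difference was −0.32 ± 0.089 (limma's adjusted p = 0.191). In the RefSeq gene table Tomm6 overlaps Tomm6os, Frs3 and Usp49, which differed by −0.0019, 0.11 and −0.32, and which of them its probes can detect is not given in the sources used here. Tomm7, which affects the stability of the complex, differed by −0.091 ± 0.071 with overlapping groups.

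The pore gene Tomm40 was at 8.40, 8.11 and 8.21 on the knockout-labelled arrays, against 8.09, 8.01 and 8.06 on the control arrays. The groups did not overlap, yet the lowest value with the Myc guide was only just above the highest control, and the difference was 0.19 ± 0.086 (limma's adjusted p = 0.371). Tomm22, the central receptor that also holds the complex together, was at 7.94, 8.10 and 7.85 against 7.89, 7.92 and 7.91 in controls. Tomm20, the presequence receptor, was at 5.19, 5.63 and 5.20 against 5.26, 5.08 and 5.33 in controls. For both receptors the groups overlapped, and without knockout-labelled replicate 2 the difference was −0.0069 for Tomm22 and −0.025 for Tomm20, in place of 0.061 and 0.12. Tomm70a, the receptor for carriers, was at 8.12, 8.12 and 8.17 against 8.11, 8.24 and 8.15 in controls, also overlapping. The paralog Tomm40l and the cytosolic Tomm34 differed by 0.0052 ± 0.067 and −0.046 ± 0.092. Tomm20l had a mean of 2.41 with the Myc guide and 2.38 in controls, below the array medians, so its probe set cannot show a lack of change, and the same holds for Tomm6os, with means of 3.003 and 3.004.

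In the TIM23 channel the measured subunits other than Timm17a did not depart from the controls beyond their spread. Timm17b, the alternative to Timm17a, was at 7.85, 7.80 and 7.69 on the knockout-labelled arrays, against 8.05, 7.80 and 7.85 on the control arrays. Its groups overlapped, and the difference was −0.12 ± 0.086. Timm50, the receptor that guides presequences to the channel, was at 6.91, 6.95 and 6.79, against 6.91, 6.87 and 6.95 in controls. Timm21, which links the channel to TOM and to respiratory chain assembly, differed by −0.029 ± 0.097.

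The motor genes showed no common direction. Timm44, which tethers mitochondrial HSP70 to the channel, was at 7.16, 7.18 and 7.10 on the knockout-labelled arrays, against 7.20, 7.15 and 7.14 on the control arrays. Grpel1, the main nucleotide exchange factor of the motor, was at 5.94, 6.18 and 6.01 against 5.88, 6.03 and 5.605 in controls, with overlap and a difference of 0.21 ± 0.12. Its paralog Grpel2 was at 4.93, 4.92 and 5.02 against 5.15, 5.10 and 5.07 in controls. All 3 values with the Myc guide were lower for Grpel2, by a small amount (−0.15 ± 0.059; limma's unadjusted p = 0.0408, adjusted p = 0.312).

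The small TIM chaperones of the intermembrane space were the 1 role with more than 2 measured genes in which each difference was positive, with 6 of 6 above 0 and a median of 0.088. In all genes tested 52.3% of differences were above 0, and in those at or above the median level 42.0% were. Timm10 was at 5.53, 5.604 and 5.69 on the knockout-labelled arrays, against 5.38, 5.38 and 5.39 on the control arrays (difference 0.22 ± 0.062; limma's unadjusted p = 0.0101, adjusted p = 0.191). Timm9, whose product forms a ring with that of Timm10, was at 4.99, 5.13 and 5.26 against 4.92, 4.92 and 4.82 in controls (difference 0.24 ± 0.083; limma's unadjusted p = 0.0245, adjusted p = 0.264). For both partners all 3 values with the Myc guide lay above all controls. Timm13, whose product forms a second kind of ring with TIM8 proteins, differed by 0.0999 ± 0.11, and the TIM8 genes Timm8b and Timm8a2 by 0.036 ± 0.069 and 0.076 ± 0.077. Timm10b, which docks the rings on TIM22, differed by 0.066 ± 0.070. The groups overlapped for these 4 genes. All 6 differences stayed above 0 under cyclic loess and median centring, while without control replicate 1 that of Timm13 was −0.0041. Without knockout-labelled replicate 1, Timm8b, Timm8a2 and Timm10b differed by only 0.00032, 0.0021 and 0.0043. In that setting Timm13 differed by 0.034, Timm9 by 0.31 and Timm10 by 0.26. Timm8a2 also lay near the array medians, with means of 3.73 on the knockout-labelled arrays and 3.65 on the control arrays. The mean over the 6 genes was 5.66, 5.59 and 5.601 on the knockout-labelled arrays, against 5.46, 5.53 and 5.49 on the control arrays.

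**Figure D3:**
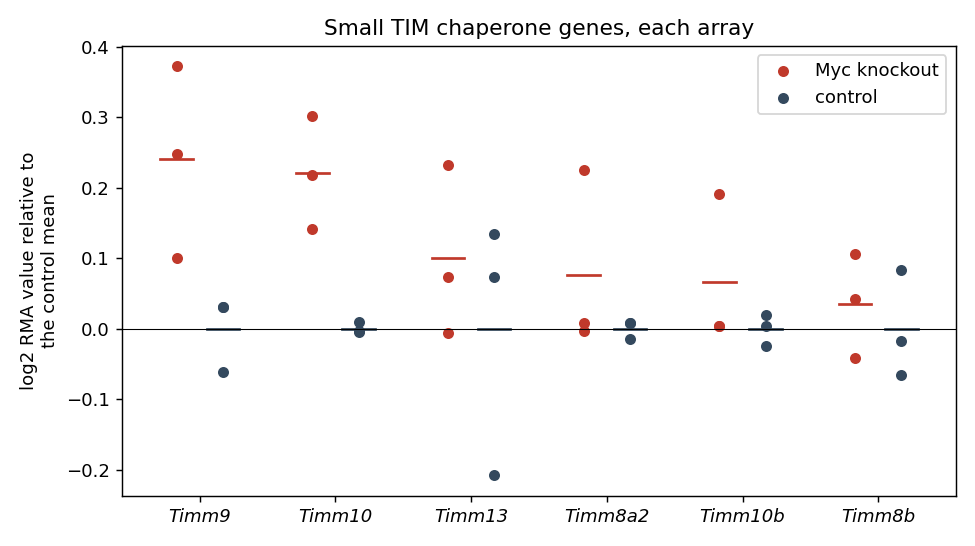
Log2 RMA value of the 6 measured small TIM chaperone genes on each array (points), relative to the mean of the control arrays of the same gene; short lines are group means (n = 3). The knockout-labelled arrays lie above all control arrays for Timm9 and Timm10, and the groups overlap for the other genes.

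In the TIM22 complex, which receives carriers from these chaperones, the groups overlapped for Timm22 and Timm29. The same held for the small TIM chaperones other than Timm9 and Timm10. Timm22, the channel subunit of the complex, was at 4.64, 4.68 and 4.79 on the knockout-labelled arrays, against 4.72, 4.50 and 4.67 on the control arrays. Timm29, a further subunit, differed by 0.041 ± 0.090.

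In the SAM complex, which inserts barrel proteins into the outer membrane, differences were small. Samm50, the core subunit, was at 7.37, 7.39 and 7.25 on the knockout-labelled arrays, against 7.39, 7.45 and 7.41 on the control arrays. The groups did not overlap, but the difference of −0.082 ± 0.062 was far from passing (limma's adjusted p = 0.572). Mtx2 differed by 0.066 ± 0.057, and Mtx1 by −0.038 ± 0.058. Mtx1 had the same value of 6.59 on 5 of the 6 arrays, with control replicate 3 at 6.70. Exactly equal values on at least 2 arrays occurred in 9 of the 35 members and in 38.8% of all genes. The 9 include Timmdc1 and Timm9, each with equal values on control replicates 1 and 2.

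The 3 measured peptidases that trim imported proteins all differed by less than 0.1. Pmpca, a subunit of the matrix processing peptidase, was at 8.01, 8.01 and 7.97 on the knockout-labelled arrays, against 7.96, 7.95 and 7.94 on the control arrays. The groups did not overlap, yet the difference was 0.052 ± 0.051 (limma's adjusted p = 0.667). Pmpcb, the catalytic partner, was at 6.91, 7.09 and 7.04 against 6.91, 7.03 and 6.95 in controls. Immp1l, of the inner membrane peptidase, differed by −0.011 ± 0.061. The 95% intervals were −0.071 to 0.17 for Pmpca, −0.12 to 0.22 for Pmpcb and −0.16 to 0.13 for Immp1l.

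In the disulfide relay, which traps cysteine-rich proteins in the intermembrane space, the enzyme and its oxidant pointed in different directions. Gfer, the sulfhydryl oxidase that restores the relay, was at 5.86, 6.04 and 6.02 on the knockout-labelled arrays, against 6.29, 6.20 and 6.23 on the control arrays. All values with the Myc guide were lower, with a difference of −0.26 ± 0.069 (1.20-fold lower; limma's unadjusted p = 0.0075, adjusted p = 0.173). Chchd4, the oxidoreductase that binds incoming proteins, was at 5.55, 5.78 and 5.87 against 5.68, 5.50 and 5.44 in controls. The groups overlapped for Chchd4, and the difference was 0.19 ± 0.11.

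Paralogs and partners were compared within each array, as the log2 value of 1 gene minus that of the other, which shows unequal change but does not rank their levels. For Timm17a minus Timm17b this value was 0.95, 1.10 and 1.22 on the knockout-labelled arrays, against 0.46, 0.75 and 0.57 on the control arrays, a shift of 0.49. For Chchd4 minus Gfer it was −0.32, −0.26 and −0.15 against −0.61, −0.70 and −0.79 in controls, a shift of 0.46. For Grpel1 minus Grpel2 it was 1.02, 1.26 and 0.99 against 0.73, 0.93 and 0.54 in controls, a shift of 0.36. In these 3 pairs the groups did not overlap, and the exact two-sided permutation p was 0.1, which is the lowest value 3 arrays against 3 can reach, or 0.3 after Benjamini-Hochberg adjustment over the 9 pairs compared. The shift was 0.18 for Tomm40 minus Tomm40l, −0.10 for Mtx1 minus Mtx2, 0.15 for Timm10 minus Timm10b, 0.090 for Tomm20 minus Tomm20l, 0.020 for Timm9 minus Timm10 and 0.0040 for Pmpca minus Pmpcb. Exact permutation p ranged from 0.2 to 0.9 in these 6 pairs, so no pair could be called at the usual threshold.

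**Figure D4:**
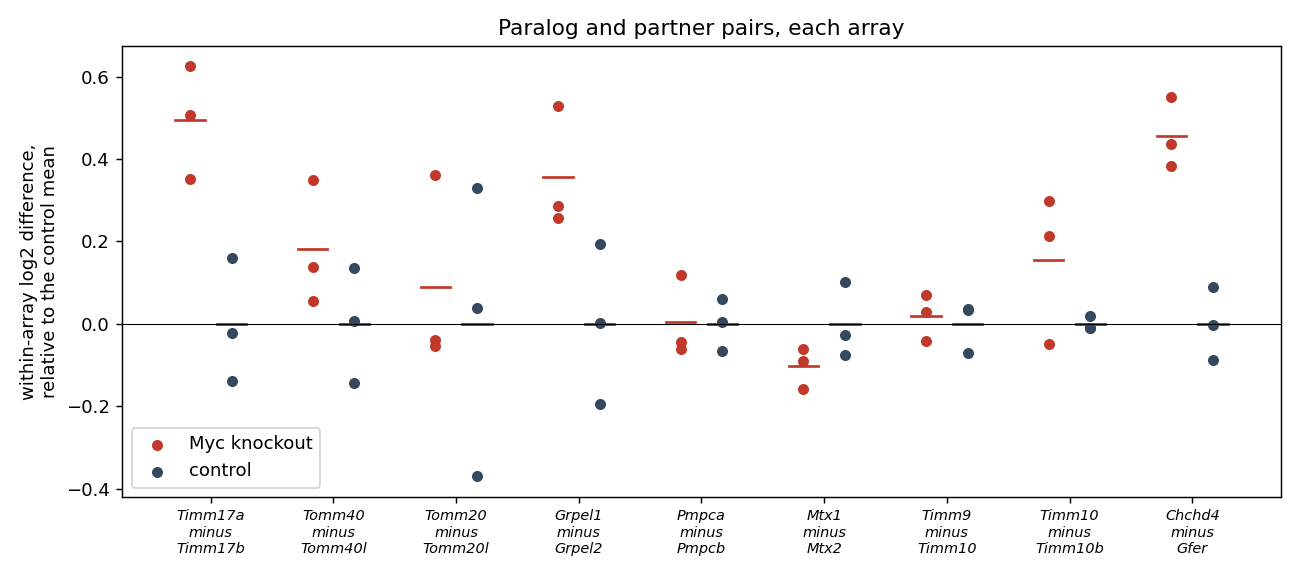
Within-array log2 difference between the genes of each of 9 pairs (points, 1 per array), relative to the mean of the control arrays; short lines are group means (n = 3). The groups separate for Timm17a minus Timm17b, Grpel1 minus Grpel2 and Chchd4 minus Gfer and overlap in the other pairs.

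Other genes of mitochondrial protein biogenesis were taken from 5 lists chosen with earlier results of these data known. Of 46 measured, 0 passed over all genes in either direction in limma, where 0.453% of all genes were called. At that share a list of this size can hold 0 without differing from all genes. At limma's unadjusted p under 0.05, 1 was higher and 2 were lower, against 6.97% and 7.91% of all genes. The median difference was −0.018, beside 0.0077 over all genes tested and −0.030 over those at or above the median level. Among 14 other import and insertion factors, Mtch1, related to the outer membrane insertase Mtch2, was at 7.85, 7.72 and 7.71 on the knockout-labelled arrays, against 8.22, 8.08 and 8.12 on the control arrays. It had the smallest p of all 46, with a difference of −0.38 ± 0.071 (limma's adjusted p = 0.0931), while Mtch2 differed by 0.093 ± 0.083. The motor chaperone Hspa9 stood at a mean of 9.73 ± 0.030 on the knockout-labelled arrays and 9.73 ± 0.083 on the control arrays (SD, n = 3 each), a difference of 0.0048 ± 0.064. Among 3 matrix folding chaperones, Hspd1, the mitochondrial chaperonin, was at 9.16, 9.25 and 9.27 against 8.96, 9.11 and 9.02 in controls (0.19 ± 0.067; limma's adjusted p = 0.263). Its 3 values with the Myc guide lay above all controls.

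Of 7 subunits of MICOS, which shapes the inner membrane, Apoo had the smallest p, with a difference of −0.35 ± 0.13 (limma's unadjusted p = 0.0313). Of 11 small twin-cysteine proteins, which the disulfide relay imports, 9 had negative differences and 2 positive ones (18.2%). The list is not complete and leaves out the small TIM chaperones, where 6 of 6 differences were positive. It therefore gives no common direction for proteins imported by the relay. Of all genes tested 52.3% were positive, and of those at or above the median level 42.0%. The median of the 11 was −0.048, with Ndufb7 at −0.17 ± 0.074 (limma's unadjusted p = 0.0596). Of 11 proteases and prohibitins, Pitrm1, which degrades cleaved presequences, had the smallest p (0.13 ± 0.059, limma's unadjusted p = 0.0656). The difference of the import genes from these lists was not tested.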

How the data were processed

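Total RNA of 6 samples, 3 labelled Myc knockout and 3 control by their titles, was measured on Affymetrix arrays. The deposited log2 values are the authors' RMA output, per the submitters' processing notes, which also name limma 3.14.4. RMA corrects background, equalises the arrays' distributions and summarises each probe set, which takes out any change common to all transcripts. Neither the array version nor the genome build is given in the sources used here. Of 25206 probe sets, 23185 have 1 symbol in the platform annotation, 0 have several and 2021 have none and were left out. All 23185 gene numbers were found in a RefSeq table of GRCm38.p6. The number of arrays limits the precision.

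The named probe sets were fitted together, without a filter, with limma 3.58.1 in R 4.3.3 (lmFit, eBayes, no covariate), two-sided, with Benjamini-Hochberg adjustment over all of them and a threshold of 0.05. The procedure was tested on simulated data. The changes planted there were larger than the difference of any member in the main fit. That test therefore does not show how often differences of the sizes seen here are found. Pairs used exact permutation over the 6 arrays. Values on every array are given for members without overlap between groups and for a fixed set of core subunits, and of each other list the gene with the smallest p is named. Other genes named were picked with their values known. The members and lists were chosen with earlier results of these data known. The alternatives were the replicate number as a block, an intensity trend or a robust prior, array weights, 2 scalings, filters, all probe sets, a threshold of 0.1 and each array left out. Leaving out Timmdc1, Tomm34 and Tomm6os was added after the data were seen.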

Additional observations from a re-analysis of the deposited data

How the results depend on the processing

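Over the alternatives run, members past the threshold were 0 higher and 0 lower except for 2 higher, Timm17a and Timmdc1, with an intensity trend, among probe sets at or above the median level and at an adjusted p under 0.1. In these settings 0.699%, 1.72% and 0.798% of all genes tested were called higher, beside 0.254% in the main fit. As lower, 0.897%, 2.83% and 0.983% were called, beside 0.198%. Under the filter fewer genes were tested and the prior variance was fitted anew, with the SE of Timm17a at 0.062 in place of 0.065. The cause was not tested for the filter or the trend. Scaling moved the members without overlap to 4 higher under median centring (6.82% of all genes) and 2 lower under cyclic loess (12.2% of all genes), and the median difference to 0.071 under cyclic loess (0.0043 over all genes). Median centring shifts all differences by 1 constant. It also moves each array by its own median, so the spread within groups changes, with the SE of Timm17a at 0.076 in place of 0.065. The cause under cyclic loess was not tested. With each array left out, the median difference ranged from 0.0089 to 0.051, and members at an unadjusted p under 0.05 in limma from 4 to 6 higher and 2 to 3 lower, while all genes ranged from 5.65% to 6.78% higher and 6.27% to 7.28% lower. Myc passed among probe sets at or above the median level (limma's adjusted p = 0.0497, difference 0.36).

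Members with small differences changed sign: Tomm40l to −0.0033 with array weights, Tomm6os to 0.025 with array weights, and under cyclic loess Immp1l to 0.033, Mtx1 to 0.00031, Timm21 to 0.011, Timm44 to 0.014, Timm50 to 0.0077, Tomm20l to −0.0017 and the pair Pmpca minus Pmpcb to −0.0097. Tomm40l was also at −0.020 under median centring, a sign set by the constant shift. With each array left out, the difference ranged from −0.036 to 0.025 for Immp1l, −0.0041 to 0.167 for Timm13, −0.093 to 0.042 for Timm21, −0.028 to 0.1005 for Timm29, −0.034 to 0.0066 for Timm44, −0.063 to 0.021 for Timm50, −0.025 to 0.19 for Tomm20, −0.12 to 0.14 for Tomm20l, −0.0069 to 0.12 for Tomm22, −0.14 to 0.012 for Tomm34, −0.043 to 0.054 for Tomm40l, −0.086 to 0.11 for Tomm6os and −0.058 to 0.0063 for Tomm70a. It ranged from −0.095 to 0.25 for Tomm20 minus Tomm20l, −0.053 to 0.037 for Pmpca minus Pmpcb and −0.015 to 0.050 for Timm9 minus Timm10. The causes of the other sign changes were not tested. Same-numbered arrays did not deviate together (correlations −0.070, −0.012 and −0.017 over all genes), and differently numbered ones gave −0.027 to 0.042. A correlation over all genes cannot show whether same-numbered arrays shared a culture or a handling step that touched some genes only. A replicate block gave 0 members and 0 of all genes past the threshold, and at limma's unadjusted p under 0.05 it gave 4 members higher and 2 lower, against 6.41% and 6.73% of all genes. Without the block and without Timmdc1, Tomm34 and Tomm6os, a choice made after seeing the data, 4 of 32 were higher and 3 lower at that p, against 6.97% and 7.91% of all genes. Signal near the array medians limits Tomm20l, Tomm6os and Timm8a2.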
